A study of Homo sapiens with 8 samples.

Results

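SMG6, TTLL4, COL4A2 and COL4A1 are 4 of the 20090 protein-coding genes placed on chromosomes 1 to 22 and X of the human genome build hg19. They were selected on H3K27ac measured in these same libraries. SMG6, TTLL4 and COL4A2 hold the 3 longest H3K27ac peaks of ATRA-treated HL-60 cells that had no counterpart in control cells, with the length taken from replicate 1. COL4A1 holds no such peak and was included because it starts beside COL4A2 and is transcribed away from it. The lengths that chose the members were 30.987 kb in SMG6, 27.699 kb in TTLL4 and 27.102 kb in COL4A2. The next peaks outside the choice were 22.686 kb long, 28.728 kb from the transcription start site (TSS) of ARHGAP12 on chromosome 10, and 22.584 kb long on chromosome 6, where the nearest coding TSS, that of GMDS, was 251.264 kb away. Because the choice rests on H3K27ac in ATRA-treated and control cells, that difference is described here and was not tested.

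The HL-60 line was established from a human myeloid leukemia and matures towards granulocytes when exposed to all-trans retinoic acid (ATRA). Cells received 1 µM ATRA, or the same volume of its solvent ethanol as the control, for 4 days, and medium and agent were renewed on day 2. Chromatin was crosslinked with formaldehyde, sheared and immunoprecipitated with antibodies from Abcam against H3K4me3 or H3K27ac, and each mark was sequenced in 2 ATRA and 2 control libraries, 8 in all. The values analyzed are the positions of the broad peaks that the authors called in each library on its own with MACS2, so that every measurement is a length under peaks and not a read count. No source used here says whether the replicates came from separate cultures.

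H3K27ac is an acetylated histone found at active enhancers and promoters, and long stretches of it are known from regions where many enhancer elements lie close together. H3K4me3 is a trimethylated histone that marks the start sites of active or poised genes. SMG6 is the endonuclease of nonsense-mediated decay, the pathway that degrades mRNAs with a premature stop codon, and it also associates with telomerase. TTLL4 is a polyglutamylase that adds glutamate side chains to tubulin and other proteins. COL4A1 and COL4A2 encode the α1 and α2 chains of type IV collagen, the network-forming collagen of basement membranes. The genes of this chain pair lie head to head and are known to share a bidirectional promoter.

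The H3K27ac libraries differed in extent. Their peaks covered 64.8 and 86.1 Mb of the genome in ATRA replicates 1 and 2, against 28.8 and 54.0 Mb in the control replicates. For H3K4me3 the covered lengths lay between 47.7 and 63.2 Mb. The read numbers are unknown, so depth and treatment cannot be told apart in these totals. For this reason each count of members is given beside the share of all protein-coding genes that behaved the same way. H3K4me3 within 2 kb of the TSS was present in 4 to 6 of 8 promyelocyte and myeloid genes per library, with CEBPA, SPI1, MPO and CD33 marked in all 4 libraries. ELANE and LYZ were marked in none. It was present at 3 or 4 of 5 genes of granulocytic differentiation and at 0 of 3 lymphoid genes. Of all protein-coding genes, 51.7% had H3K4me3 there in all 4 libraries and 44.9% in none, so nothing is read from these counts. Of the 6 matched genes of endothelial cells and fibroblasts, which are known for type IV collagen, CDH5, VWF, TEK, COL3A1 and PDGFRB were marked in no library, and COL1A1 was marked in 1 library of each condition.

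Upon ATRA induction, SMG6 carried many stretches of H3K27ac from near its TSS to beyond its 3′ end, while control cells had hardly any. The gene (ENSG00000070366) lies on the minus strand at chr17:1963133-2207079 and is 243.947 kb long. The annotated 5′ end of SRR, which encodes serine racemase, lies within SMG6 at 2206677. The SMG6 TSS at 2207079 faces the representative start of SRR across a gap of 164 bp. That gap is shown on the SMG6 strand, from the GRCh37 genome at chr17:2207080-2207243, with CpG dinucleotides in capitals, because it is the CpG-rich stretch that separates both start sites:
SMG6–SRR: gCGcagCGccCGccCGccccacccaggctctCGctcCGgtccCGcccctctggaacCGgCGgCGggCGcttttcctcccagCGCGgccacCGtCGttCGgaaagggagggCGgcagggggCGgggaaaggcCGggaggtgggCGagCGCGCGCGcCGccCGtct
It holds 26 CpG dinucleotides and its GC content is 79.3%.

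Over the gene body and 30 kb on each side, H3K27ac peaks covered 121.182 and 95.957 kb in ATRA replicates 1 and 2, and 1.316 and 1.772 kb in the control replicates. The ATRA values were far above the control values. Of the 16087 protein-coding genes with H3K27ac in their window in any library, 45.2% had both ATRA libraries above both control libraries by any amount. The means were 108.6 ± 17.8 kb in ATRA-treated and 1.54 ± 0.322 kb in control cells (SD, n = 2). With only peaks of a deposited −log10 q of at least 5, their difference was 46.1 kb instead of 107.0 kb. The window held 34 and 26 peaks in the ATRA libraries and 2 peaks in each control library. In terms of the gene body alone, 48.1% and 37.9% were covered under ATRA, against 0.443% and 0.583% in control cells. In both control libraries the only H3K27ac peak inside the gene was a site about 37 kb downstream of the TSS, 1.08 kb long in replicate 1 and 1.422 kb in replicate 2. In the ATRA libraries this site lay within peaks of 7.088 and 9.528 kb.

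The mark was not spread evenly along SMG6. Cutting the gene body into 5 equal segments, the last one, at the 3′ end, was covered to 94.9% and 86.9% in the ATRA replicates. The first segment was covered to 33.0% and 24.6%, and the lowest values were 23.7% in the segment before the last in replicate 1 and 22.8% in the second in replicate 2. The 30 kb upstream of the TSS held no H3K27ac in any library.

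The longest ATRA-only peak lay in that 3′ segment, at chr17:1977318-2008304, between 198.775 and 229.761 kb downstream of the TSS. It spans exons 14 and 15 of the 19 exons of the representative transcript, and 99.0% of it is intronic. In replicate 2 this stretch was covered to 93.9% by 2 peaks, the longer of which was 23.751 kb. Neither control library had H3K27ac anywhere in it, and no H3K4me3 peak touched it in any of the 4 libraries. Of 6 transcript starts annotated under it, 4 belong to SMG6 transcripts without a defined coding sequence, and none is the representative start of a coding gene. A second ATRA peak of 14.85 kb followed it in replicate 1, between 230.665 and 245.514 kb, so that only a gap of less than 1 kb separated them.

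**Figure D1:**
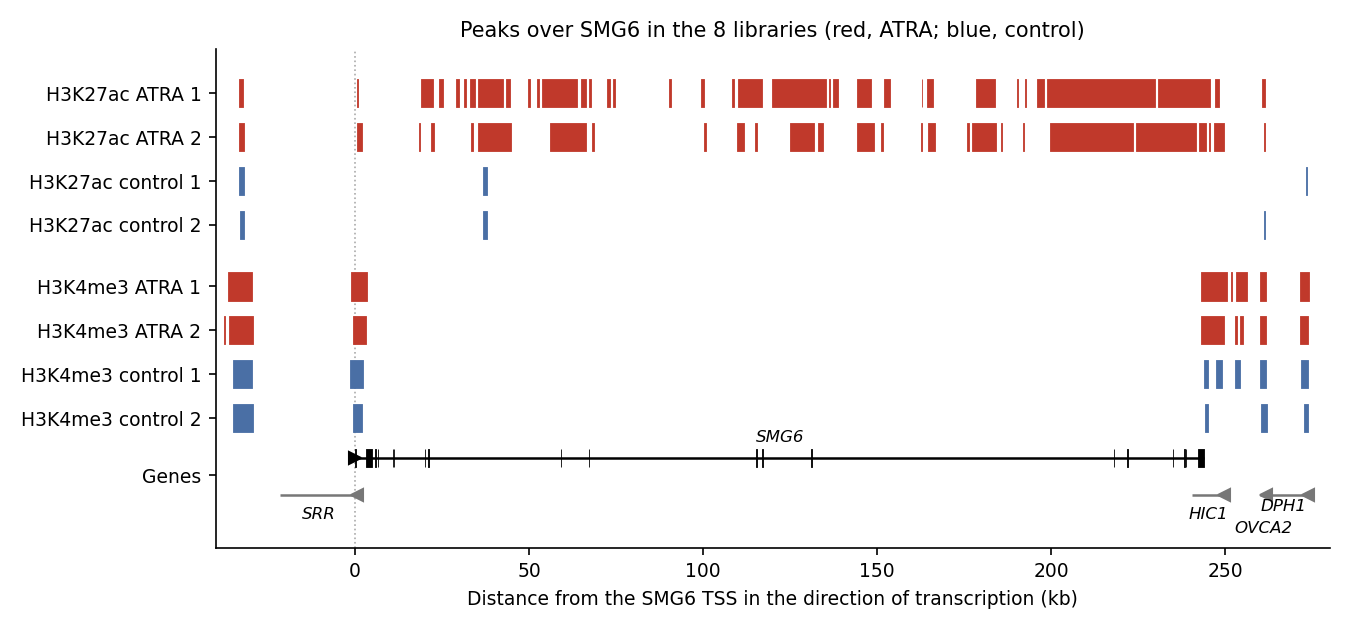
Peaks of H3K27ac (upper 4 tracks) and H3K4me3 (lower 4 tracks) in each library, ATRA in red and control in blue, against the distance from the SMG6 TSS in kb; black ticks are exons of SMG6 and arrowheads are start sites. H3K27ac under ATRA extends over the gene to beyond its 3′ end, with the densest stretch from 198.775 kb on, while H3K4me3 lies at the TSS, near the 3′ end and at an upstream site that all 4 libraries share.

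At the SMG6 promoter, H3K4me3 did not separate the conditions. Within 2 kb of the TSS it covered 3287 and 2521 bp in ATRA replicates 1 and 2, and 3435 and 2506 bp in the control replicates. The groups overlapped, with means of 2904 ± 542 and 2971 ± 657 bp (SD, n = 2). The peak over the TSS was 4565 and 3714 bp long under ATRA and 3769 and 2506 bp long in control cells, again with overlap. H3K27ac within 2 kb was 261 and 1188 bp under ATRA and 0 bp in both control libraries, and none of these small peaks reached the TSS itself. Of the genes with H3K27ac within 2 kb of the TSS in any library, 33.6% separated in this direction.

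H3K4me3 did differ near the 3′ end of SMG6, where HIC1, a transcriptional repressor known as a tumor suppressor, begins on the opposite strand. Within 2 kb of the HIC1 TSS it covered 3039 and 1908 bp in the ATRA replicates and 1526 and 0 bp in the control replicates, so that the groups did not overlap. Of all promoters with H3K4me3 in any library, 20.6% were higher under ATRA in this way. H3K27ac there was 686 and 1855 bp under ATRA and 0 bp in both control libraries. Over the whole SMG6 window H3K4me3 covered 20.564 and 16.55 kb under ATRA and 12.469 and 6.659 kb in control cells. Of the genes with H3K4me3 in their window, 42% had both ATRA libraries above both control libraries in the same way. DPH1, an enzyme of diphthamide synthesis that starts farther downstream, had 2286 and 2176 bp of H3K4me3 within 2 kb under ATRA and 2075 and 1227 bp in control cells. OVCA2, a serine hydrolase gene overlapping DPH1, did not separate the conditions, at 2009 and 1691 bp against 1916 and 1630 bp.

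TTLL4 showed a comparable pattern in a much shorter gene. It (ENSG00000135912) lies on the plus strand at chr2:219575558-219620139 and is 44.582 kb long. The 150 bases before its TSS, at chr2:219575408-219575557, are shown with CpG dinucleotides in capitals, because H3K4me3 reached them in every library while H3K27ac began only downstream:
TTLL4: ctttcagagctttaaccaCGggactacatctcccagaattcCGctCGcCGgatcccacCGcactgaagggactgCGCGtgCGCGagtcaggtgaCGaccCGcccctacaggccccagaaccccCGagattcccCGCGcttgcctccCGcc
This stretch holds 15 CpG dinucleotides and its GC content is 65.3%.

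H3K27ac over TTLL4 and 30 kb on each side covered 29.684 and 33.199 kb in ATRA replicates 1 and 2, and 0 and 0.957 kb in the control replicates. The ATRA replicates were close to each other and above both controls. The deposited −log10 q was below 5 for every H3K27ac peak of this window under ATRA. With peaks below 5 left out, 0 kb were left in any library. Of all H3K27ac peaks in the genome, 12.8% to 16.9% per library reached 5. The means were 31.4 ± 2.49 kb under ATRA and 0.479 ± 0.677 kb in control cells (SD, n = 2). The gene body was covered to 60.6% and 64.7% under ATRA, and in control replicate 2 to 2.15% by a single peak of 957 bp that began 0.297 kb after the TSS.

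The long peak of replicate 1, at chr2:219594690-219622388, began 19.132 kb downstream of the TSS and ended 2249 bp past the annotated gene end. It covers exons 3 to 20 of 20, with 17.1% of its length in exons and 74.8% in introns. In replicate 2 the same stretch was covered to 69.4% by 3 peaks, the longest 13.051 kb, so that the single peak of replicate 1 was broken there. The part of replicate 2 past 38.586 kb from the TSS was nearly bare inside the gene, with 1 peak of 0.858 kb. No control H3K27ac and no H3K4me3 of any library fell in it. All 15 transcript starts under the peak belong to TTLL4. These include 4 protein-coding transcripts, but not the representative one.

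**Figure D2:**
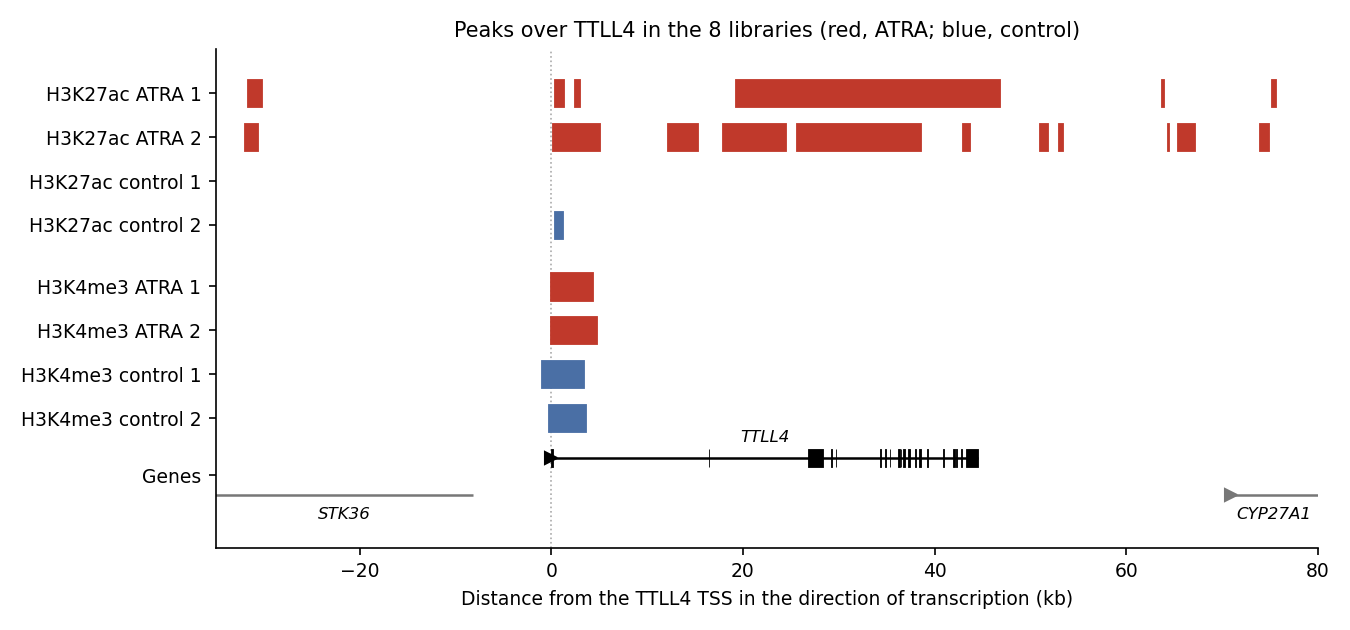
Peaks of both marks in the 8 libraries against the distance from the TTLL4 TSS in kb, drawn as for SMG6. The single 27.699 kb H3K27ac peak of ATRA replicate 1 corresponds to several shorter peaks in replicate 2, and H3K4me3 lies over the TSS in all 4 libraries.

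H3K4me3 was present at the TTLL4 promoter in every library, with a different reach on each side of the TSS. Within 2 kb of the TSS it covered 2084 and 2099 bp under ATRA and 3101 and 2322 bp in control cells, so that both ATRA libraries lay below both control libraries. The means were 2092 ± 10.6 and 2712 ± 551 bp (SD, n = 2). The difference of −0.62 kb was −0.231 kb without control replicate 1 and −0.119 kb with only peaks of a −log10 q of at least 5, and it turned to 0.434 kb within 5 kb of the TSS. Of all promoters with H3K4me3, 4.4% were lower under ATRA in this way and 20.6% were higher. When covered lengths were scaled to a common genome-wide total, the split became 59.1% lower and 6.29% higher. Of the promoters that became lower, 37.4% were covered over the whole window in all 4 libraries. The lower value in TTLL4 came from the upstream side, where the peak reached 83 and 98 bp beyond the TSS under ATRA and 1100 and 321 bp in control cells. On the downstream side it reached 4363 and 4753 bp under ATRA and 3403 and 3604 bp in control cells. Each side separated the conditions, in opposite directions. The total peak length did not, at 4447 and 4852 bp under ATRA and 4504 and 3926 bp in control cells. No share of all genes was computed for the reach on either side, so nothing is read from these separations.

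H3K27ac within 2 kb of the TTLL4 TSS covered 1030 and 1927 bp under ATRA and 0 and 957 bp in control cells. SMG6 and TTLL4 were the only members with H3K27ac within 2 kb of the TSS. Both had more of it there in both ATRA libraries than in both controls, as did 33.6% of all genes with H3K27ac in that region. CYP27A1, a mitochondrial sterol hydroxylase gene whose TSS lies in the downstream flank, had no peak of either mark within 2 kb of its TSS in any library. The nearest H3K27ac peak was 4.161 and 2.904 kb from that TSS in ATRA replicates 1 and 2. In control replicates 1 and 2 it was 211.609 and 23.636 kb away. No share of all genes was computed for this distance.

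COL4A2 and COL4A1 differed from the others in that their shared promoter carried no mark at all. COL4A2 (ENSG00000134871) lies on the plus strand at chr13:110958159-111165556 and is 207.398 kb long. COL4A1 (ENSG00000187498) lies on the minus strand at chr13:110801310-110959504 and is 158.195 kb long. The annotated 5′ end of COL4A2 is that of an alternative transcript within COL4A1, and its representative transcript starts at 110959631. The sequence between the representative start sites, chr13:110959505-110959630, is shown on the plus strand with CpG dinucleotides in capitals:
COL4A1–COL4A2: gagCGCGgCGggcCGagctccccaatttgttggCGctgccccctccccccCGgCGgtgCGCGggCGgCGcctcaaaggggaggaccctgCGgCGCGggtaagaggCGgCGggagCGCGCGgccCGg
It holds 20 CpG dinucleotides in 126 bp, with a GC content of 80.2%.

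Neither H3K4me3 nor H3K27ac was found within 2 kb of either start in any of the 8 libraries. The nearest H3K4me3 peak lay between 104.56 and 104.809 kb from the COL4A2 5′ end. It was in every library the same short site in the body of COL4A1. The absence of H3K4me3 is set here beside the base composition of the promoter. Within 500 bp of the representative TSS the ratio of observed to expected CpG was 0.867 for COL4A2 and 0.861 for COL4A1, against 0.821 for SMG6 and 0.792 for TTLL4. All 4 are CpG-rich by the usual criteria of a GC content of at least 50% and a ratio of at least 0.6. Of the 12956 CpG-rich coding promoters, 73.2% had H3K4me3 within 2 kb of the representative TSS in all 4 libraries and 24.3% in none. SMG6 and TTLL4 were among the former and the collagen pair among the latter.

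By contrast, the 3′ part of COL4A2 carried long H3K27ac under ATRA. The window of COL4A2 was covered over 79.913 and 36.849 kb in ATRA replicates 1 and 2, and over 0.385 and 3.996 kb in the control replicates. Both ATRA values were above both control values, and replicate 1 had more than replicate 2. The means were 58.4 ± 30.5 kb and 2.19 ± 2.55 kb (SD, n = 2). The difference between the means was 56.2 kb, or 34.7 kb without ATRA replicate 1 and 2.62 kb with only peaks of a −log10 q of at least 5. All of this H3K27ac lay in the last 2 of 5 equal segments of the gene body and in the downstream flank, and the first 3 segments held none in any library. The last segment was covered to 83.4% and 23.8% in the ATRA replicates, and the 30 kb flank downstream of the gene to 89.3% and 52.4%. In that last segment, a site about 205 kb from the 5′ end had H3K27ac in both control libraries, by peaks of 0.385 and 2.199 kb. In the ATRA libraries this site lay within peaks of 16.555 and 4.101 kb.

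The long peak, at chr13:111106133-111133234, lay between 147.974 and 175.075 kb from the 5′ end, over exons 21 to 31 of the 48 exons of the representative transcript, and 94.8% of it was intronic. Replicate 2 covered 62.8% of it with 7 peaks, the longest 9.235 kb. Neither control library had H3K27ac in it, and H3K4me3 was absent from it in all 4 libraries. Of 5 transcript starts under it, 4 belong to COL4A2, and 1 of these is annotated as protein coding. The remaining start is that of COL4A2-AS2, a long noncoding RNA on the opposite strand. A second long peak of replicate 1, 22.744 kb in length, crossed from 211.763 to 234.506 kb, beyond the 3′ end. It was not ATRA-only, because control replicate 2 had a peak of 1.797 kb in it.

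The H3K27ac past COL4A2 led up to RAB20, a small GTPase of endosomes and phagosomes, which was chosen for description after its values were seen. The H3K27ac peak over the RAB20 TSS was 12140 and 5111 bp long under ATRA, and neither control library had a peak over that TSS. Within 2 kb of it, H3K27ac covered 4001 bp in both ATRA libraries and 0 and 318 bp in control replicates 1 and 2. Of the genes with H3K27ac within 2 kb of the TSS in any library, 33.6% separated in this direction. The H3K4me3 peak over the RAB20 TSS was 10363 and 6537 bp long under ATRA and 6147 and 4704 bp long in control cells. Within 2 kb of the TSS, H3K4me3 covered 4001 bp in both ATRA libraries and 4001 and 3809 bp in the control replicates, so that the groups overlapped. No share of all genes was computed for the peak length.

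COL4A1 did not share the H3K27ac of its partner. Its window was covered over 11.828 and 7.546 kb in the ATRA replicates and over 5.972 and 8.325 kb in the control replicates. These groups overlapped, with means of 9.69 ± 3.03 and 7.15 ± 1.66 kb (SD, n = 2). The windows of the 2 collagen genes overlap around the shared promoter, and no H3K27ac peak lies in the overlap, so no peak was counted for both. In COL4A1 as in COL4A2 the mark was restricted to the 3′ part, and the first 3 of 5 segments of the gene body had none in any library. A site about 145 kb downstream of the TSS was marked in all 4 libraries, by peaks of 4.805 and 3.586 kb under ATRA and 3.472 and 6.016 kb in control cells. A further site, about 169 kb from the TSS and so past the end of the gene, had H3K27ac peaks of 3.152 and 2.926 kb under ATRA and 1.94 and 1.391 kb in control cells.

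**Figure D3:**
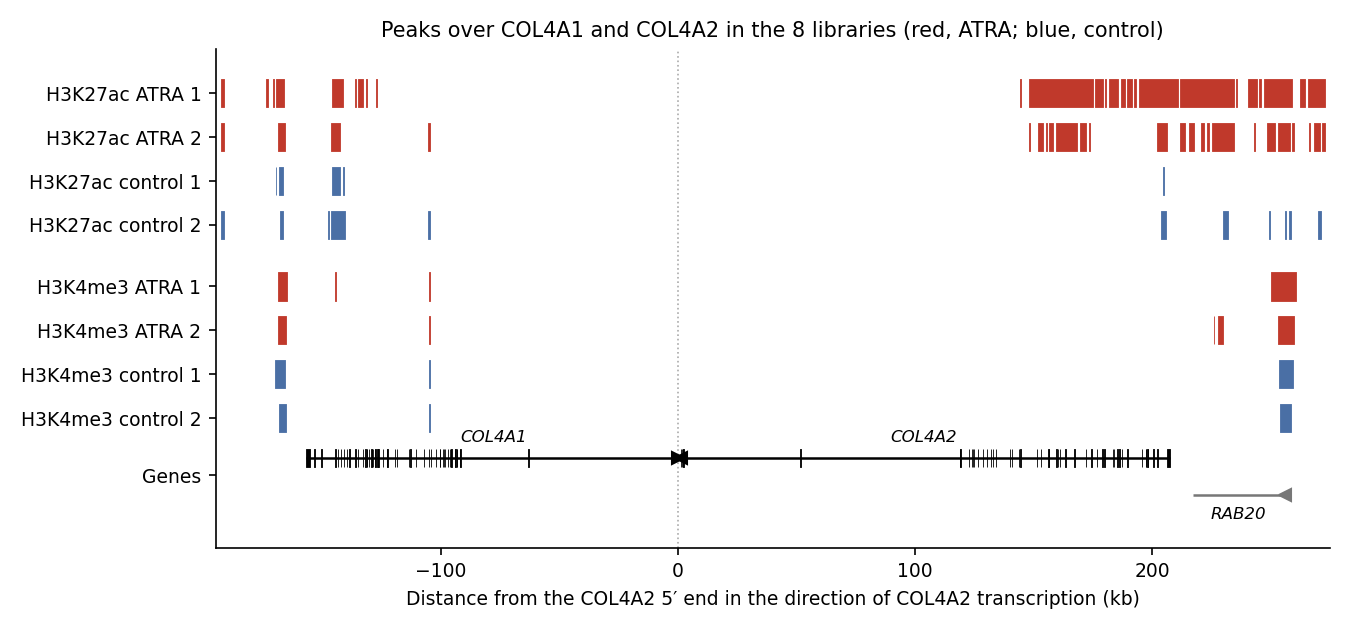
Peaks of both marks in the 8 libraries over COL4A1 and COL4A2 and on to RAB20, against the distance from the COL4A2 5′ end in kb, drawn as for SMG6. The region around 0 is empty in every track, and H3K27ac under ATRA begins near 148 kb and runs past the end of COL4A2.

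Set side by side, 3 of the 4 members had more H3K27ac in their window in both ATRA libraries than in both control libraries, and COL4A1 overlapped. Of all genes with H3K27ac in the window, 45.2% separated in this way, and 18.5% after scaling to a common genome-wide covered length. The rule used this contrast, so nothing is read from the count. Ordered by the difference between the ATRA and control means, SMG6 was at place 3, COL4A2 at place 10, TTLL4 at place 120 and COL4A1 at place 6580. The median difference over those genes was 1.67 kb. Windows differ in length, and the covered share of the window under ATRA was 39.9% and 31.6% for SMG6, 28.4% and 31.7% for TTLL4, 29.9% and 13.8% for COL4A2, and 5.42% and 3.46% for COL4A1.

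**Figure D4:**
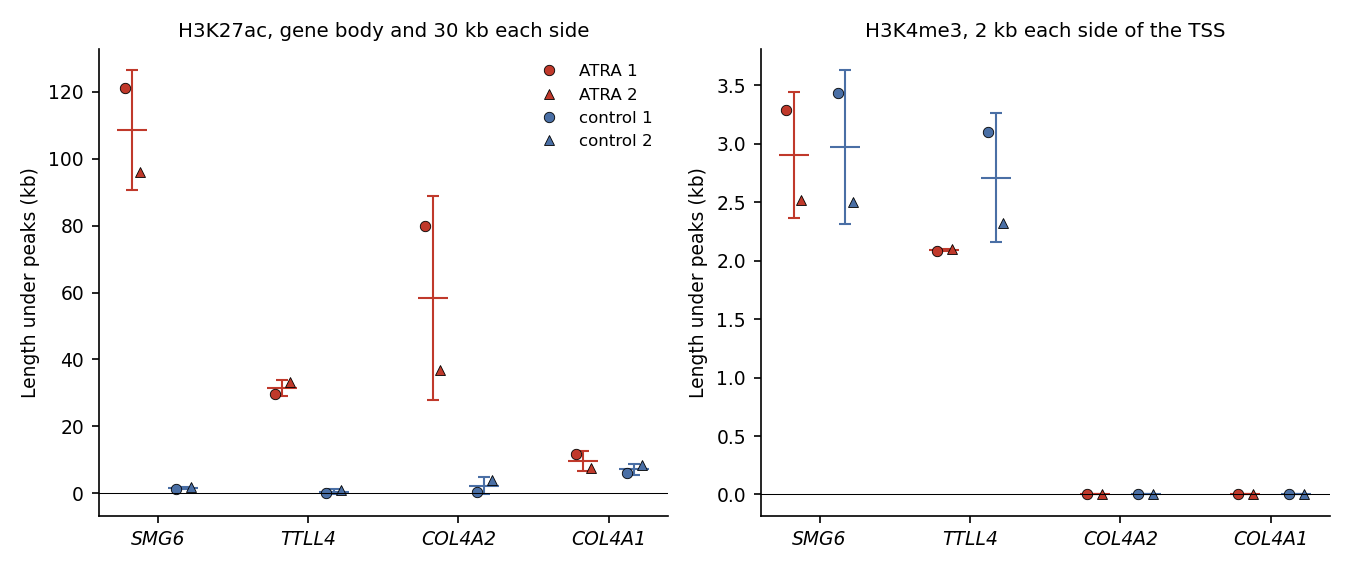
Length under H3K27ac peaks in each member's window (left, kb) and under H3K4me3 peaks within 2 kb of its TSS (right, kb); circles are replicate 1, triangles replicate 2, and bars give the mean and SD (n = 2). H3K27ac separates ATRA (red) from control (blue) for 3 genes and not for COL4A1, while H3K4me3 is 0 in all libraries for both collagen genes.

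H3K4me3 was no part of the rule. Within 2 kb of the TSS it was present at SMG6 and TTLL4 and higher under ATRA at neither. It overlapped between the conditions at SMG6, and at TTLL4 it was lower within 2 kb though not within 5 kb. Of all promoters with H3K4me3 in any library, 20.6% were higher and 4.4% lower. The collagen pair had no H3K4me3 there and so lies outside those shares. The smallest p of an exact two-sided permutation test between 2 and 2 libraries is 0.333, so no member was tested.

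The length in replicate 2 of ATRA was not used to order the peaks. Ordered by that length among its 5556 ATRA-only peaks, the peak in SMG6 was at place 2, that in TTLL4 at place 20 and that in COL4A2 at place 56. Among all 28200 H3K27ac peaks of ATRA replicate 1, whether or not control cells had them too, the 3 peaks were at places 27, 54 and 61. Of the 5791 ATRA-only peaks of replicate 1, 70 were at least 10 kb long. Replicate 2 covered a median of 70.5% of these, with a range from 8.42% to 100%, so that SMG6 lay above the median, TTLL4 just below it and COL4A2 below it. The absence of H3K4me3 from the 3 peaks was common in this class. Of the 70 long peaks, 52 had H3K4me3 in neither ATRA library, which is 74.3%, and of all ATRA-only peaks it was 81.5%. The peak at place 4, on chromosome 10, did have it, over 7013 and 9618 bp in the ATRA libraries and 0 bp in the control libraries.

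**Figure D5:**
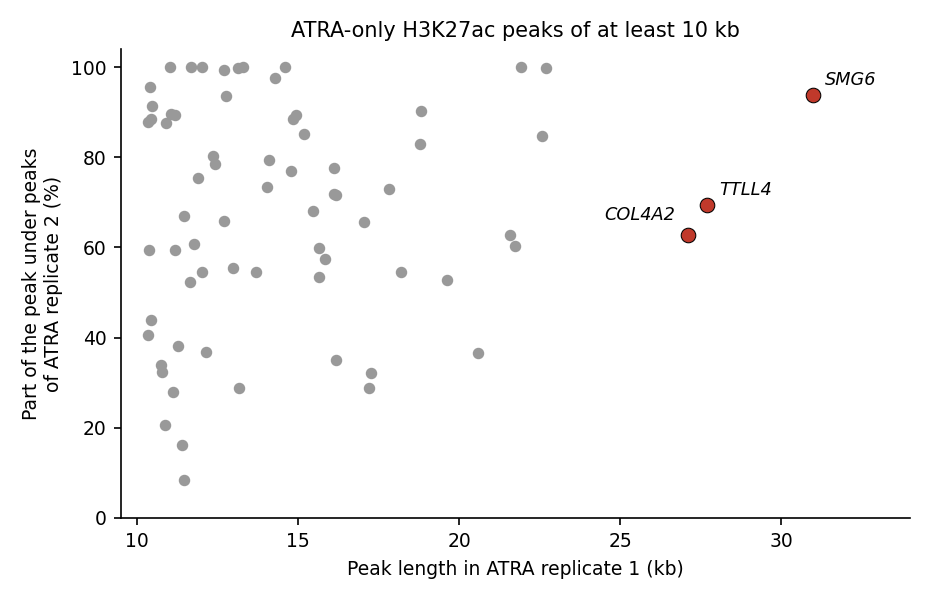
Each point is 1 of the 70 ATRA-only H3K27ac peaks of at least 10 kb, with its length in ATRA replicate 1 (kb) and the part of it that peaks of ATRA replicate 2 cover (%). The 3 peaks of SMG6, TTLL4 and COL4A2, in red, are the longest by the rule, and their coverage in replicate 2 is 93.9%, 69.4% and 62.8%.

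ATRA acts through retinoic acid receptors, which bind as dimers with RXR to direct repeats of the hexamer AGGTCA, classically with 1, 2 or 5 bases between the repeats. The 3 long peaks were searched on both strands for such repeats, first with AGGTCA alone and then with AGGTCA, the variant AGTTCA, the variant GGGTCA or the variant GGTTCA at either place. The first search, over 3 peaks with each of these spacings, found a single match, in SMG6, with 1 base between the repeats. Of the windows of the same length tiled over the genome, 1.05% hold a match of that kind. With this hexamer alone, 2.23% hold one spaced by 2 bases and 0.691% one spaced by 5. The 1.05% is thus the share for 1 peak length and 1 spacing, not for the whole search that found this repeat. On the minus strand, at chr17:1991203-1991226 and in an intron of SMG6, this repeat shares its second hexamer with a repeat spaced by 5 bases, so that 3 hexamers, in capitals, follow each other:
SMG6, 3 hexamers: AGGTCAgAGGTCAtagtgGGGTCA
With the wider set, SMG6 also held another repeat spaced by 5 bases and 4 spaced by 2 bases. Those without the letters of the Alu repeat named below are shown with 20 bases on each side, and repeat annotation was not used:
SMG6, spacing 5: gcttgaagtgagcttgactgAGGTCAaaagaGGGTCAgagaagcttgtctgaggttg
SMG6, spacing 2: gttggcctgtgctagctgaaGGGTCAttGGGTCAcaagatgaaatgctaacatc
They lie at chr17:1987080-1987096 and chr17:1995610-1995623 without the added bases. The search ran only within the long peaks, so H3K27ac over each match in ATRA replicate 1, and none in a control library, followed from the choice. In replicate 2 H3K27ac covered all the SMG6 matches but 1, a repeat spaced by 2 bases, beside 93.9% of the whole stretch. Of the windows of that length, 5.95% hold a match spaced by 5 bases with the wider set, 57.8% one spaced by 2 bases and 11.1% one spaced by 1 base.

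Of the 4 SMG6 matches spaced by 2 bases, 3 have the hexamers and spacer of the widespread Alu repeat family. So has the only such match of COL4A2, which lay under H3K27ac in ATRA replicate 1 but not in replicate 2. COL4A2 also held a match spaced by 5 bases at chr13:111111518-111111534, covered by H3K27ac in both ATRA libraries, with the hexamers in capitals:
COL4A2, spacing 5: AGTTCAataggGGGTCA
Windows as long as the COL4A2 peak hold a match of this kind in 5.21% of cases. A match of letters is a description of the sequence and no evidence of binding. The GC content of the peaks was 49.5% in SMG6, 46.2% in TTLL4 and 51.3% in COL4A2, and the ratio of observed to expected CpG between 0.199 and 0.335, well below that of the promoters.

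The other genes of each pathway were compared as lists. Of 10 genes of nonsense-mediated decay, all had H3K4me3 at the promoter in all 4 libraries, as did 51.7% of all protein-coding genes. In their windows 6 had more H3K27ac in both ATRA libraries than in both controls and 0 had less. Among all genes with H3K27ac in the window 45.2% had more and 3.64% less. After scaling to a common covered length this split became 18.5% and 24.5%. SMG6 had the greatest length of them under ATRA. SMG9, a regulator of the SMG1 kinase, had 39.703 and 28.056 kb under ATRA and 14.016 and 21.454 kb in control cells. UPF1, the central helicase of the pathway, had 4.855 and 4.038 kb against 0.948 and 0.862 kb. SMG1 itself overlapped between the conditions, at 5.99 and 16.821 kb against 2.319 and 13.602 kb. The median difference in H3K27ac over the list was 3.17 kb.

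Of 14 genes of the tubulin tyrosine ligase family, 12 had H3K27ac in the window in some library. Of these, 7 had more under ATRA in this way, beside 45.2% of all genes with H3K27ac in the window. TTLL11 had less, with 0 and 0.961 kb under ATRA and 3.254 and 2.702 kb in control cells. TTLL4 had the greatest length of the family under ATRA and, with TTLL2, TTLL5, TTLL7 and TTLL9, was among those with 0 kb in at least 1 control library. TTLL3, a glycylase, had 19.754 and 20.328 kb against 12.507 and 16.082 kb, and TTLL12 had 12.869 and 11.957 kb against 2.75 and 5.571 kb. H3K4me3 was at the promoter in all 4 libraries for 6 of the 14 and in none for 8, beside 51.7% and 44.9% of all genes. Over the 12 genes of the family with H3K27ac the median difference was 1.82 kb, beside 1.67 kb over all genes with H3K27ac in the window.

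Of 21 basement membrane genes, 17 had no H3K4me3 within 2 kb of the TSS in any library, as did the collagen pair, which is among them, beside 44.9% of all genes. COL4A5, COL4A6 and LAMC1 had it in all 4, and LAMA5 in control replicate 1 alone. Of the 18 genes of the list with H3K27ac in the window, it was higher under ATRA in 9 and lower in 0. Among all genes with H3K27ac in the window these shares were 45.2% and 3.64%. After COL4A2 the longest were LAMB3, a laminin β chain, with 20.597 and 23.388 kb under ATRA and 0 kb in both control libraries, and NID1, the linker protein nidogen, with 18.206 and 28.985 kb against 1.842 and 9.775 kb. Neither had H3K4me3 within 2 kb of its TSS in any library. The paralogs of the collagen pair had little H3K27ac, with at most 2.22 kb in any library for COL4A3, COL4A4, COL4A5 and COL4A6. Over the 18 of them with H3K27ac the median difference was 1.40 kb.

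The protein-coding genes whose H3K27ac lengths over the 4 libraries were most like those of each member, by Euclidean distance and outside its own window, were also listed. For SMG6 these were TG, HIVEP3 and IRAG1, at distances of 37.8, 53.9 and 57.3 kb. TG, the thyroglobulin gene, had 103.871 and 99.481 kb under ATRA and 15.731 and 31.968 kb in control cells. IRAG1 had 67.671 and 77.422 kb against 2.557 and 10.267 kb. The choice of SMG6 rested in part on absent control peaks, so nothing is read from its lower control lengths. For TTLL4 they were MERTK, HK1 and SCN2B, at 5.31 to 6.42 kb. SCN2B, a sodium channel subunit gene, had 26.622 and 27.635 kb against 0 kb in both controls. For COL4A2 they were SULF2, SH3RF3 and PEBP4, at 13.6 to 17.8 kb. SULF2, an extracellular sulfatase gene, had 68.305 and 30.301 kb against 1.223 and 1.616 kb. For COL4A1 they were PPP1R16A at 1.03 kb, and DDB1 and TKFC, which overlap each other, at 1.21 kb.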

How the data were processed

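Peaks of H3K4me3 and H3K27ac were analyzed in 8 libraries of HL-60 cells. The authors trimmed adapters with cutadapt, mapped the reads with Bowtie on hg19, and ran MACS2 on each library for broad peaks. Tool versions are not given in the sources used here. Positions were used as deposited. The deposited −log10 q-value of each peak served only as a stricter setting of at least 5. The deposited fold enrichment and −log10 p-value hold values these measures cannot take and were not used. Read numbers are unknown, so intervals from counting were not possible and 2 replicates set the precision.

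The build was compared with GRCh37, and no peak ran past a chromosome end. Genes came from GENCODE release 44 lifted to GRCh37, with the gene 5′ end as TSS. The representative transcript was that tagged canonical by Ensembl. Promoter base composition and the shares of CpG-rich promoters with H3K4me3 used the start of that transcript. Lengths under peaks were summed per library over the gene body plus 30 kb and over 2 kb on each side of the TSS. An ATRA-only peak overlapped a peak of the other ATRA replicate by at least 1 bp and no peak of either control library. Background shares are over genes with a peak of the mark in that region in any library. Same-length windows with more than 10% of unknown bases were left out. The genes named are the members, genes with a TSS in a member window, 3 gene families, cell type markers, the coding genes nearest the next longest peaks and, for each member, the 3 genes likest in H3K27ac. RAB20 was added after its values were seen. The members and lists were chosen with earlier results of these data known. Some items that these lists and the sequence search cover are not reported here. No difference was tested. The length and merging steps were checked on simulated peak lists, and the call of separation between conditions on simulated lengths. Python 3.11.15, numpy 2.4.6, pandas 2.3.3 and matplotlib 3.10.9 were used.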

Additional observations from a re-analysis of the deposited data

How the results depend on the processing

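The differences between ATRA and control means were recomputed under other settings, as were the places of the long peaks. For H3K27ac in the window, which was 107.0 kb higher under ATRA for SMG6, 31.0 kb for TTLL4, 56.2 kb for COL4A2 and 2.54 kb for COL4A1, the replicate block gave differences within replicate numbers 1 and 2 of 119.9 and 94.2 kb for SMG6, 79.5 and 32.9 kb for COL4A2, and 5.86 and −0.779 kb for COL4A1. For TTLL4 they moved by less than 1 SD. Leaving out each library gave 94.4 to 119.6 kb for SMG6, 29.2 to 32.7 kb for TTLL4, 34.7 to 77.7 kb for COL4A2 and 0.398 to 4.68 kb for COL4A1. Scaling to a common covered length gave 84.9 kb for SMG6, 24.1 kb for TTLL4 and −2.68 kb for COL4A1. TTLL4 gave 27.5 kb in the gene body alone and 34.2 kb with 50 kb on each side.

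Keeping only peaks with a −log10 q of at least 5 left 46.1 kb for SMG6 and 0 kb for TTLL4. It left 2.62 kb for COL4A2 and −0.162 kb for COL4A1. With this filter, 526 ATRA-only peaks of replicate 1 were found instead of 5791. None of the 3 long peaks reached this −log10 q, so no place could be given. That column is a weak filter for single peaks, since the logarithms of −log10 q of neighboring H3K27ac peaks were correlated at 0.61 to 0.71 in each library while those of their lengths were at −0.0206 to 0.00483. For H3K4me3 at the promoter, the difference of −0.0665 kb for SMG6 became −1.33 kb under this filter and 1.0 kb with 5 kb on each side. That for TTLL4, −0.62 kb, became −0.119 kb under the filter, reversed to 0.434 kb with 5 kb on each side, and was −1.02 and −0.223 kb within replicate numbers 1 and 2 in the replicate block. Leaving out each library gave −0.531 to 0.398 kb for SMG6 and −1.01 to −0.231 kb for TTLL4, the last without control replicate 1. Both collagen genes stayed at 0 throughout.

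By length in replicate 2 the places were 2 for SMG6, 20 for TTLL4 and 56 for COL4A2. They were 2, 4 and 6 when absence was required only from peaks found in both control replicates. With gaps of up to 1 kb bridged, SMG6 stayed at place 1, at 49.606 kb, TTLL4 was at place 4 and COL4A2 at place 2. After scaling, the shares of genes with the mark in the region changed. For H3K27ac in the window they were 18.5% instead of 45.2% higher and 24.5% instead of 3.64% lower. For H3K27ac at the promoter 11% instead of 33.6% were higher. For H3K4me3 at the promoter 6.29% instead of 20.6% were higher and 59.1% instead of 4.4% lower. For H3K4me3 in the window 16% instead of 42% were higher. Depth is unknown, and a mark below the calling threshold cannot be told from an absent one.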
